A study of Mus musculus with 4 samples.

Results

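RNA of single cells from TC-1 tumours, taken 3 days after mice received cisplatin, was compared with that from tumours of mice given PBS. All barcodes with at least 500 detected genes and at most 10% of UMIs (unique molecular identifiers, each standing for 1 captured RNA molecule) from mitochondrially encoded genes entered the comparison. This left 13039 cells, of 23294 in all 4 libraries of the series under the same limits. The PBS library kept 8075 of 10063 barcodes and the day 3 library 4964 of 6264. Both groups were wild-type mice of the strain given as C57/bl6 that carried a subcutaneous tumour from 300000 TC-1 cells, a transplantable mouse lung epithelial line. Treatment began at a tumour size of 40 mm², as PBS or as 1 intraperitoneal dose of cisplatin at 6 mg/kg. The PBS library has no collection day in the labels and "no treatment" as its source, and the number of mice behind each library is not stated. Cells were sorted as CD45+, lineage-negative, CD90+ and CD127+, and 15000 were captured per library for 10x 3' version 3 chemistry.

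Each group is 1 library, so no difference below has a replicate check. The 95% intervals given with ratios and shares cover counting error only. Day, tumour age, sort and library preparation cannot be told apart from treatment. The kept cells of the PBS and day 3 libraries held 57064112 and 34636051 UMIs, with medians of 6343 and 6217 UMIs and 2166 and 2148 genes per cell. They shared 17 barcodes, 8 of them among kept cells.

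The labels call the cells innate lymphoid cells, and the transcripts of most cells go against that name. The 12 macrophage markers, among them Lyz2, Apoe and C1qa, summed to a CPM (UMIs scaled to the library's depth) of 40090 in the PBS library and 33151 in the day 3 library. Markers of T cells summed to 88.1 and 675 CPM, of natural killer (NK) cells and group 1 innate lymphoid cells to 42.2 and 368 CPM, of group 2 cells to 44.8 and 98.7 CPM and of group 3 cells to 26.2 and 130 CPM. Thy1, which encodes CD90 of the sort gate, had at least 1 UMI in 1.88% of PBS cells and 9.30% of day 3 cells once every cell was thinned to 2000 UMIs (4.67% and 17.2% unthinned). For Il7r, which encodes CD127, the thinned shares were 4.56% and 22.3% (10.3% and 38.4% unthinned). For Ptprc, which encodes CD45, they were 48.0% and 60.0% (81.7% and 86.3% unthinned). The cells are therefore described by gene and by 2 ranges of marker counts, not as innate lymphoid cells.

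Cisplatin forms platinum adducts and crosslinks on DNA, which stall replication and activate p53, a transcription factor that raises genes of cell cycle arrest and cell death. Interferons act through JAK kinases and STAT factors on genes with an interferon-stimulated response element (ISRE) or a gamma-activated sequence (GAS), and they raise antiviral proteins and antigen presentation. Tumour macrophages come from tissue-resident cells and from blood monocytes, which express Ly6C and lose it as they mature.

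Promoter letters of members from the groups described below are shown first, because the share of promoters with these motifs differed between the groups. They come from RefSeq on build GRCm38.p6 and run 5′ to 3′ on the gene's strand, from 250 bases before the annotated start to shortly after it. In the first 3, of the interferon-induced genes Isg15 (chr4:156200809-156201068, minus strand), Gbp2 (chr3:142620413-142620672, plus strand) and Igtp (chr11:58199306-58199565, plus strand), capitals mark matches to the ISRE core GAAANNGAAA on either strand.
Isg15: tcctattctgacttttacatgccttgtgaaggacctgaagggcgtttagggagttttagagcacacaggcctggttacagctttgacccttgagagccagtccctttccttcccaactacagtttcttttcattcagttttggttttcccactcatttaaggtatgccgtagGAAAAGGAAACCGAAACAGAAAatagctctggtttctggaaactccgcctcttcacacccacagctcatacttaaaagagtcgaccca
Gbp2: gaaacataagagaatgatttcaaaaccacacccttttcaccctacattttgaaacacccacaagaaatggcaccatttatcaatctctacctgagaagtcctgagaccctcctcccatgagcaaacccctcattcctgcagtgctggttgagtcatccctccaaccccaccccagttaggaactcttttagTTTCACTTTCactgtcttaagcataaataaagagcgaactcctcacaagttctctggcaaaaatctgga
Igtp: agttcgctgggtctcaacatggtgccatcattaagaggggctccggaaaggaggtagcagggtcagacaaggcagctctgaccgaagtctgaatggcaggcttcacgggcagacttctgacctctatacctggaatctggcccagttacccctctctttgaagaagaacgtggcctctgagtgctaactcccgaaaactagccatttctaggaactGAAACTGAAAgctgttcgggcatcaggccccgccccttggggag
Matches began 78, 72 and 66 bases before the start of Isg15 and overlapped each other, 59 bases before that of Gbp2 and 34 bases before that of Igtp.

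In the next pair, of the mitotic genes Cenpf (chr1:189688077-189688336, minus strand) and Ccnb2 (chr9:70421545-70421804, minus strand), capitals mark the cell cycle homology region TTTGAA (CHR) and the CCAAT box CCAAT on either strand. In the last, of the MHC class II gene H2-Aa (chr17:34287814-34288073, minus strand), capitals mark a CCAAT box, here read on the other strand.
Cenpf: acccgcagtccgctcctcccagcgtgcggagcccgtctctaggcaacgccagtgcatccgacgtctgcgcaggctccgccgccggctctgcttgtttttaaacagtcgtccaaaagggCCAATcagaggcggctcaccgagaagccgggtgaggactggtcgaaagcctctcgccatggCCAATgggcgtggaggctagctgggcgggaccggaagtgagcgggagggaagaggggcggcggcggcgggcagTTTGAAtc
Ccnb2: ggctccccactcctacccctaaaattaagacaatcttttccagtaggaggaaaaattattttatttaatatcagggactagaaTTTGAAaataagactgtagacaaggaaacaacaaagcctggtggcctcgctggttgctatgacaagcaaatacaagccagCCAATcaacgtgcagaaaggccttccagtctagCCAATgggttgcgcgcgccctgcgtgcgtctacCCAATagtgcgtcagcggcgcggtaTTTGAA
H2-Aa: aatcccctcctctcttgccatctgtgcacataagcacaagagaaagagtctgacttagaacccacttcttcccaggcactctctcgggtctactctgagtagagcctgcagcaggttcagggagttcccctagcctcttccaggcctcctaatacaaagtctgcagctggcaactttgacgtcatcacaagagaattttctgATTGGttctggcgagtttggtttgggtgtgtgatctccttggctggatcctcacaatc
A match is a run of letters, not a shown binding site.

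Windows of 300 bases were found for 9512 of the 12325 genes compared, 12148 windows in all. The ISRE core was present in 3.37% of all windows and in 9.17% of those of genes at least 2-fold higher on day 3. It was present in 3.45% of windows of genes at least 2-fold lower. Among antiviral effector genes the share was 37.8% (17 of 45 windows), and among interferon-inducible GTPases 10 of 12 windows held it. The GAS letters TTCNNNGAA, which can overlap the ISRE core, were in 6 of these 12 windows, beside 6.87% of all windows. None of the 12 held overlapping ISRE and GAS matches. The CHR letters were in 32 of 40 windows of G2M genes and in 12.5% of all windows. They were also in 5 of 12 windows of interferon-inducible GTPases, and in 1 of 21 of MHC class I genes. The CCAAT box was in 32 of 40 windows of G2M genes and in 8 of 11 windows of MHC class II genes, beside 37.8% of all windows. It was not particular to them, with 15 of 21 windows of MHC class I genes, 19 of 30 of S phase genes and 20 of 35 of p53 targets. Of the GTPase windows, 3 of 12 held it.

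Over all kept cells, 12325 genes had at least 50 UMIs in the 2 libraries together. Of these, 1316 (10.7%) had a CPM at least 2-fold higher on day 3 and 926 (7.51%) at least 2-fold lower. At 8-fold the counts were 214 and 29, and the median log2 ratio of all genes was -0.05. The shares at 2-fold are the reference for counts of list members over all kept cells below. The genes farthest above PBS by the interval bound nearer to no change were Gzmf, Ly6c2, Gzmd, Gzme, Plac8, Gzmb, Slfn4, Igfbp3, Ms4a8a and Ifit1bl1. Those farthest below were Cdhr3, Mcpt2, Cspg4, Slco2b1, Hist1h2ap, Cenpf, Rasgrp3, Hmmr, Hpgd and Cdkn3. A lower summed level can mean fewer cells that express a gene or less RNA in each, and sums cannot tell these apart.

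**Figure D1:**
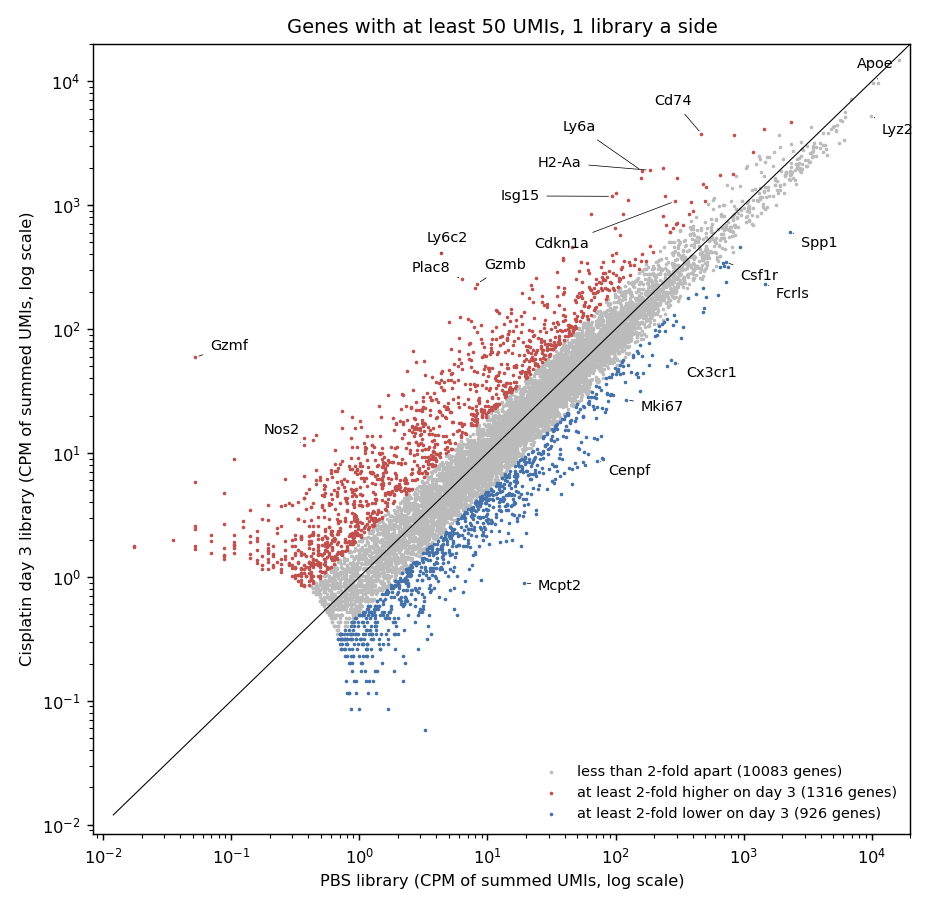
Level of each of 12325 genes in the PBS library (horizontal) and the day 3 library (vertical), as CPM of summed UMIs on log axes, with 1 point per gene and the line of equality. Red points (1316) are at least 2-fold higher on day 3 and blue points (926) at least 2-fold lower. Gzmf, at 0.0526 and 59.3 CPM, lies farthest above the line.

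Granzymes and monocyte genes led the higher genes. Ly6c2 (chr15:75108158-75111970, mm10), which encodes the Ly6C protein of inflammatory monocytes and of some T cells, had 247 UMIs or 4.33 CPM after PBS and 14175 UMIs or 409 CPM on day 3. Its log2 ratio was 6.56 (95% interval 6.38 to 6.75). Gzmf, a granzyme of activated cytotoxic lymphocytes, had 3 UMIs after PBS and 2053 on day 3, a log2 ratio of 10.14 whose interval runs from 8.59 to 12.42. Mcpt2, a mast cell protease, went the other way with 1091 and 31 UMIs. The 9 mast cell markers summed to 123 CPM after PBS and 150 CPM on day 3, while the share of thinned cells with any of them was 3.13% and 1.93%. Other mast cell proteases stood at log2 ratios of 0.25 for Mcpt4 and 0.19 for Cpa3. Reads of near-identical copies may be split between genes, which makes single values of Gzmd, Gzme, Ly6c1, Ly6c2, Ifit3, Ifit3b, Tgtp1, Tgtp2, H2-Q6 and H2-Q7 less certain.

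Because the libraries differed in their share of lymphocytes, values were also taken within 2 ranges. The lymphoid range holds cells with at least 5 UMIs of 13 T and NK cell genes, and the macrophage range holds cells with at most 1 such UMI and at least 10 UMIs of the macrophage markers. The 13 genes are Cd3d, Cd3e, Cd3g, Trac, Trbc1, Trbc2, Trdc, Lck, Cd2, Ncr1, Klrb1c, Nkg7 and Il2rb. Ratios of these genes within a range are constrained by the cut. A range is a cut on counts, not a cell type. The lymphoid range held 436 PBS cells (5.40%, 95% interval 4.92 to 5.91%) and 1097 day 3 cells (22.1%, 20.95 to 23.3%). The macrophage range held 7489 (92.7%) and 3442 (69.3%). Between the cuts lay 150 and 425 cells, and 267 and 476 cells had from 2 to 8 lymphoid UMIs, close to the cut. Cells of the lymphoid range had medians of 28 and 30 macrophage UMIs, and 42.4% and 37.2% of them had at least 100, so macrophage RNA was present in this range. The part of free RNA and of doublets in this was not tested. How cells were gated and recovered can also set the shares of both ranges.

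Of the 1316 higher genes, 393 had most of their day 3 UMIs in the lymphoid range and 862 in the macrophage range. The ranges themselves held 22.7% and 67.8% of all day 3 UMIs, so these counts partly follow the size of the ranges. In the macrophage range alone 11887 genes could be compared, 8.82% at least 2-fold higher and 8.81% at least 2-fold lower. Of the higher genes, 1072 could be compared there and 943 were again at least 2-fold higher, while 4 were at least 2-fold lower. Of the 926 lower genes, 807 of 895 were again at least 2-fold lower in the macrophage range. This range is a part of the same cells, with 94.4% of PBS and 67.8% of day 3 UMIs. These counts are therefore not an independent check.

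**Figure D2:**
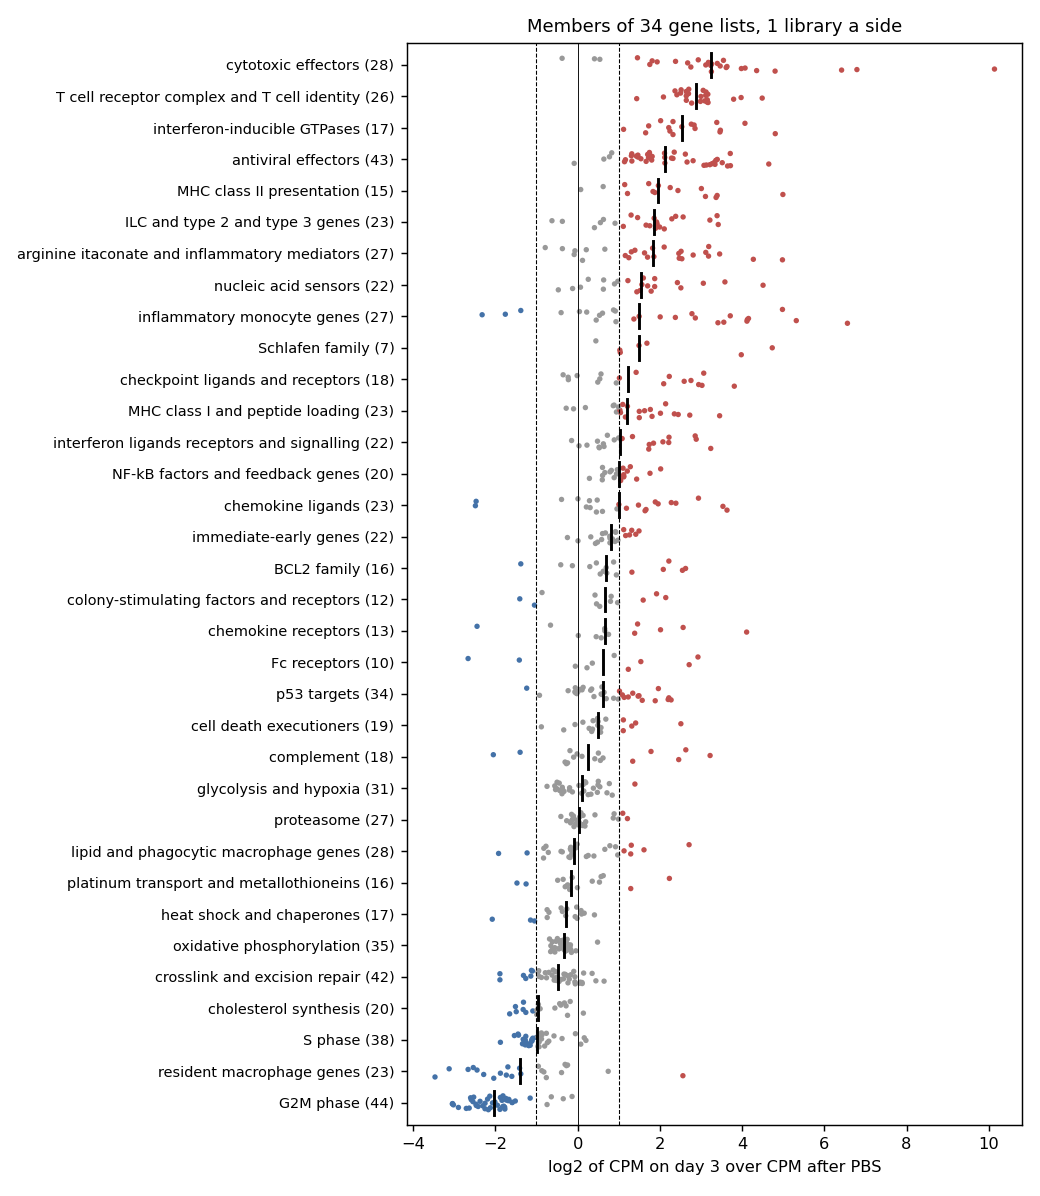
Log2 of CPM on day 3 over CPM after PBS (horizontal) for each gene of 34 lists (rows, number of genes compared in brackets), with 1 point per gene, a black bar at the list's median and dashed lines at 2-fold. Red points are at least 2-fold higher on day 3 and blue points at least 2-fold lower. G2M genes, with a median of -2.04, and resident macrophage genes, at -1.41, lie lowest.

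Interferon-induced genes were higher on day 3 from the signalling genes to the effectors. Ifng, the gamma interferon made by T and NK cells, went from 6.05 to 57.1 CPM, with 94.7% of its day 3 UMIs in the lymphoid range. Within that range its log2 ratio was 0.98, against 3.24 over all cells. Ifnb1, the beta interferon, was rare, at 65 and 131 UMIs or 1.14 and 3.78 CPM, and only 7.63% of its day 3 UMIs lay in the lymphoid range. Ifna4 had 0 UMIs in both libraries. The receptor genes Ifnar1 and Ifngr1 differed by less than 2-fold, with log2 ratios of 0.53 and 0.64.

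Among the signalling genes, 11 of 22 compared were at least 2-fold higher and 0 lower, beside 10.7% of all genes higher. Irf7, the factor that amplifies type I interferon, went from 115 to 847 CPM, a log2 ratio of 2.89 (2.85 to 2.92). Stat2, which carries the signal to the nucleus, had a log2 ratio of 2.22. The feedback inhibitors Usp18 and Socs1 stood at 2.86 and 2.22. Irf3, which acts upstream of interferon and is regulated by phosphorylation, was at -0.15.

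Sensors of nucleic acids split by kind. Of 22 compared, 14 were at least 2-fold higher. The PYHIN genes Ifi205, Ifi213 and Ifi209 had log2 ratios of 4.51, 3.58 and 3.06, and Zbp1, a sensor of Z-form nucleic acid, went from 59.4 to 339 CPM. The RNA sensors Ifih1 and Ddx58, which encode MDA5 and RIG-I, stood at 1.79 and 1.44. Adaptors of these pathways were not higher, with Mavs at -0.47 and Tmem173, which encodes STING, at -0.12. Mb21d1, which encodes the DNA sensor cGAS, was at 0.63.

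The antiviral effector list holds 45 genes, and 39 of the 43 compared were at least 2-fold higher, with a median log2 ratio of 2.11 beside -0.05 for all genes. Isg15 (chr4:156199424-156200818, mm10), a ubiquitin-like antiviral protein, had 94.1 CPM after PBS and 1179 CPM on day 3, with 144 and 200 CPM on days 1 and 7 after cisplatin, where the same PBS library is the reference. The day 3 level was the highest of the 4 libraries. Ifit3, an RNA-binding inhibitor of viral translation, went from 38.9 to 362 CPM, and Rsad2, which encodes viperin, from 45.4 to 456 CPM. Mx1 stood at a log2 ratio of 3.52 and Oasl1 at 3.36. The membrane restriction factors of the Ifitm family differed from each other. Ifitm1 and Ifitm3 stood at 3.27 and 2.12, while Ifitm2 was at -0.08, with 1012 and 956 CPM. Ifi27l2a, high in both libraries at 1730 and 2694 CPM, was at 0.64.

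All 17 interferon-inducible GTPases compared, which act against vacuolar pathogens, were at least 2-fold higher, with a median log2 ratio of 2.54. Gbp2 went from 38.7 to 193 CPM and Igtp from 19.2 to 137 CPM. Iigp1 stood at 2.77 and Gbp4 at 3.46. The smallest ratio of the family was that of Gbp7, at 1.12. Of 7 Schlafen genes, which restrict cell growth and viral replication, 6 were at least 2-fold higher, and their range was wide. Slfn4 went from 8.01 to 213 CPM, a log2 ratio of 4.73, and Slfn9 stood at 0.44.

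The interferon-induced groups were higher in both ranges. The median of the antiviral list was 2.19 in the macrophage range and 1.74 in the lymphoid range, where 6.27% of 9142 genes were at least 2-fold higher and 3.48% lower. Isg15 was detected in 12.2% of thinned PBS cells and 65.8% of thinned day 3 cells of the macrophage range, and in 17.8% and 63.1% of the lymphoid range. Unthinned shares were 26.5% and 82.5%, and 27.1% and 79.2%. Slfn4, a gene of myeloid cells, had a log2 ratio of 4.91 in the macrophage range and 4.43 in the lymphoid range. This likeness stands beside the macrophage RNA found in the lymphoid range, and its part was not tested.

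Antigen presentation genes were higher for both classes. For MHC class I, 16 of 23 genes compared were at least 2-fold higher, with a median of 1.21. H2-K1, a classical class I heavy chain, went from 1444 to 4088 CPM, and B2m, its light chain, from 1904 to 3667 CPM, a log2 ratio of 0.95. The non-classical genes H2-Q7 and H2-T23 stood higher, at 2.73 and 2.35. Tap1, of the peptide transporter, went from 76.5 to 216 CPM, and Nlrc5, the class I transactivator, stood at 2.14. The chaperones Calr and Pdia3, which serve the whole endoplasmic reticulum, were at -0.10 and -0.28. Of 27 proteasome genes, Psmb9 and Psme2 were at least 2-fold higher, a share below the 10.7% of all genes. The other immunoproteasome subunits Psmb8 and Psmb10 stood at 0.99 and 0.87, and the constitutive subunits Psmb5, Psmb6 and Psmb7 at -0.26, -0.02 and -0.13.

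For MHC class II, 13 of 15 genes compared were at least 2-fold higher, with a median of 1.97. H2-Aa (chr17:34282744-34287823, mm10), the alpha chain of I-A, had 185 CPM after PBS, 1914 CPM on day 3, 683 CPM on day 1 and 579 CPM on day 7. Cd74, the invariant chain, went from 468 to 3775 CPM. Ciita, the master regulator of class II genes, was low in both libraries at 2.30 and 10.9 CPM, a log2 ratio of 2.25 (1.96 to 2.55). The co-stimulatory genes Cd80, Cd40 and Cd86 stood at 1.97, 1.73 and 1.15. Dendritic cell markers, which share this programme, summed to 15.6 and 190 CPM over 8 genes, with Ccr7, the lymph node homing receptor, at 7.03 and 122 CPM. Their part in the class II values was not tested.

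Per cell, class II RNA was spread unevenly. There, in the macrophage range, the 4 genes H2-Aa, H2-Ab1, H2-Eb1 and Cd74 gave a median of 0.0116% of a cell's UMIs after PBS and 0.206% on day 3. The upper quartile on day 3 was 1.48% and the 90th percentile 3.64%, against 0.0287% and 0.116% after PBS. Antiviral effectors went from a median of 0.496% to 1.62%, with a day 3 upper quartile of 2.61%, and 90.8% of day 3 cells lay above the PBS median. H2-Aa was found in 10.3% and 58.0% of thinned cells of the macrophage range and in 9.34% and 40.9% of the lymphoid range, whose median depths were 6423, 6317, 3434 and 5376 UMIs. The unthinned shares were 19.0%, 74.8%, 14.2% and 60.3%. Mouse T and NK cells mostly lack class II genes, and the part of free RNA and doublets in the lymphoid range was not tested.

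**Figure D3:**
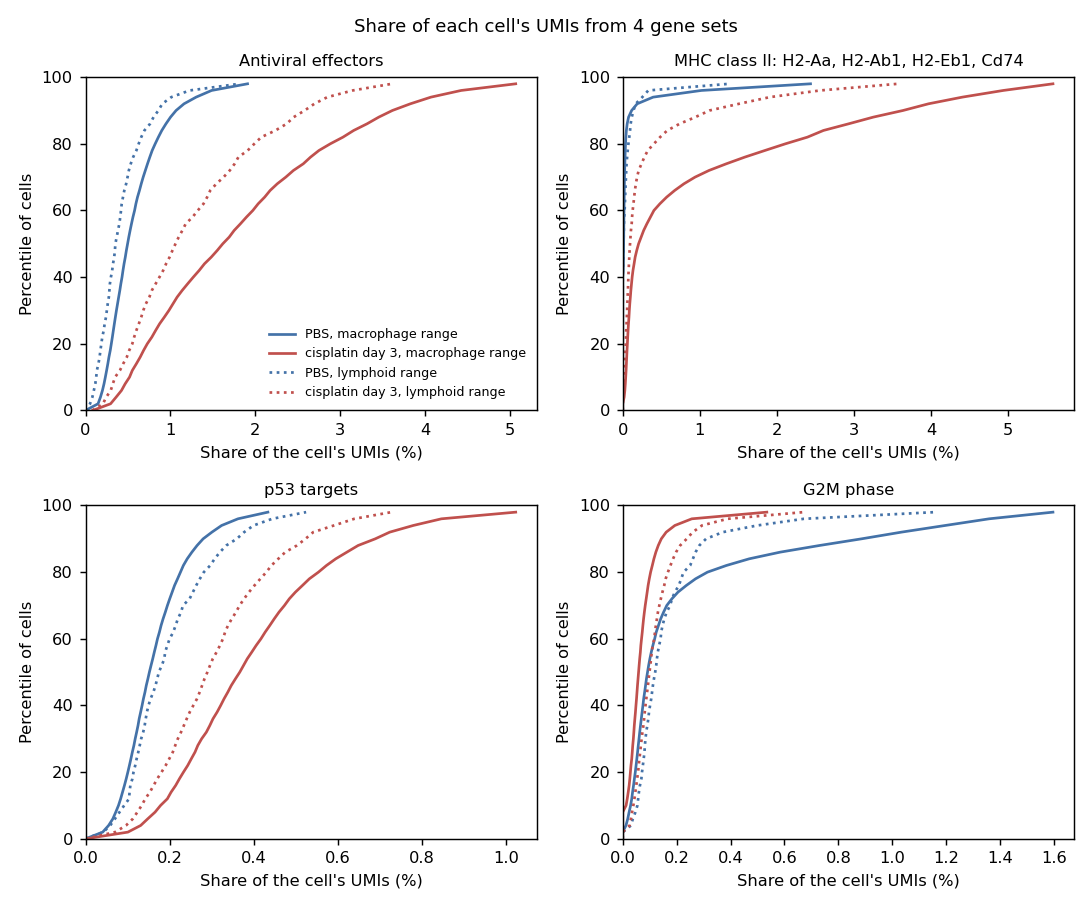
Percentile of cells (vertical) against the share of a cell's UMIs from each of 4 gene sets (horizontal, %), for PBS (blue) and day 3 (red) cells in the macrophage range (solid) and lymphoid range (dotted), drawn up to the 98th percentile. For antiviral effectors the macrophage range has a median of 0.496% after PBS and 1.62% on day 3, and the day 3 curve for class II bends to the right above its median.

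Chemokines and inflammatory mediators followed. Of 23 chemokine ligands compared, 12 were at least 2-fold higher and 2 lower, with a median of 1.00. Ccl5, which attracts T cells and monocytes, had 5778 UMIs after PBS and 43548 on day 3, and Cxcl9 and Cxcl10, the interferon-induced ligands of CXCR3, from 109 to 572 and from 244 to 1186 CPM. Ccl22, made by dendritic cells, went from 0.964 to 11.2 CPM. The monocyte attractant Ccl2 was at a log2 ratio of 0.46. Ccl24 and Cxcl13 were the lower ones, at -2.48 and -2.47. In the macrophage range the Ccl5 ratio was 4.02, and in the lymphoid range 1.23.

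Of 27 mediator genes, 20 were at least 2-fold higher and 0 lower. Nos2, the inducible nitric oxide synthase, had 21 UMIs after PBS and 403 on day 3, and Acod1, which makes itaconate, went from 2.79 to 53.9 CPM. Il1b, an inflammasome cytokine, went from 301 to 1668 CPM, Tnf from 85.1 to 263 CPM and Il10, an inhibitory cytokine, from 12.4 to 44.8 CPM. Arg1, an arginine-degrading enzyme of wound-healing macrophages, stood at 46.5 and 50.5 CPM. NF-kB factors and their feedback genes had a median of 1.01, with 10 of 20 at least 2-fold higher and Tnfaip3 at 1.76. Cd274, the gene of the inhibitory ligand PD-L1, went from 6.05 to 84.9 CPM, and its ratio was 4.09 in the macrophage range and 1.89 in the lymphoid range.

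Monocyte genes and resident macrophage genes lay on opposite sides of the PBS level. Of 27 monocyte genes compared, 15 were at least 2-fold higher and 3 lower. Plac8 went from 6.36 to 254 CPM, Chil3, a chitinase-like protein, from 1.68 to 29.4 CPM and Ly6a from 161 to 1891 CPM. Ccr2, the receptor that brings monocytes into tissue, was at 144 and 198 CPM, a log2 ratio of 0.45. The 3 lower genes were Fn1, Lyz1 and F13a1, at -2.32, -1.76 and -1.38, and F13a1 also stands in the list of resident macrophage genes. The 9 neutrophil markers summed to 18.3 and 48.3 CPM, were present in 4.17% and 9.27% of thinned cells, and had 3 of 5 genes compared at least 2-fold higher. Most of that sum came from Csf3r, at 12.6 and 38.1 CPM, while S100a8 stood at a log2 ratio of 0.05 and Ngp and Camp had 0 UMIs in both libraries. The part of neutrophils in the monocyte values was not tested.

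Of 23 resident macrophage genes, 13 were at least 2-fold lower and 1 higher, beside 7.51% of all genes lower, with a median of -1.41. Fcrls (chr3:87250758-87263738, mm10), an Fc receptor-like gene of tissue macrophages, went from 1463 to 231 CPM, a log2 ratio of -2.66 (-2.70 to -2.63). It was detected in 82.6% and 21.5% of thinned cells of the macrophage range, or 93.7% and 34.6% unthinned. Cx3cr1, the fractalkine receptor, went from 291 to 53.4 CPM, Mrc1, the mannose receptor, from 722 to 238 CPM and Stab1, a scavenger receptor, from 489 to 147 CPM. C1qa, C1qb and C1qc stood between -0.30 and -0.24. The 1 higher gene was Timd4, with 12 and 43 UMIs. The list was also lower within the macrophage range, at a median of -1.22.

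Csf1r, the receptor for the survival factor CSF-1, went from 723 to 349 CPM, and its log2 ratio was -1.05 over all cells and -0.87 in the macrophage range. Spp1, which encodes osteopontin, went from 2288 to 604 CPM. Of 28 lipid and phagocytic genes, 5 were at least 2-fold higher and 2 lower, beside 10.7% and 7.51% of all genes, and the median was -0.09, with Trem2 at -0.83, Apoe at -0.21 and Mmp13, a collagenase, at 2.71. Among Fc receptors, Fcgr4, the activating receptor for IgG2, went from 53.5 to 351 CPM, while Fcgrt, the neonatal receptor, was at -1.42. Of 18 complement genes compared, 5 were at least 2-fold higher and 2 lower, with a median of 0.26. Among the higher ones, C3 and Cfb of the alternative pathway stood at 2.46 and 3.22.

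**Figure D4:**
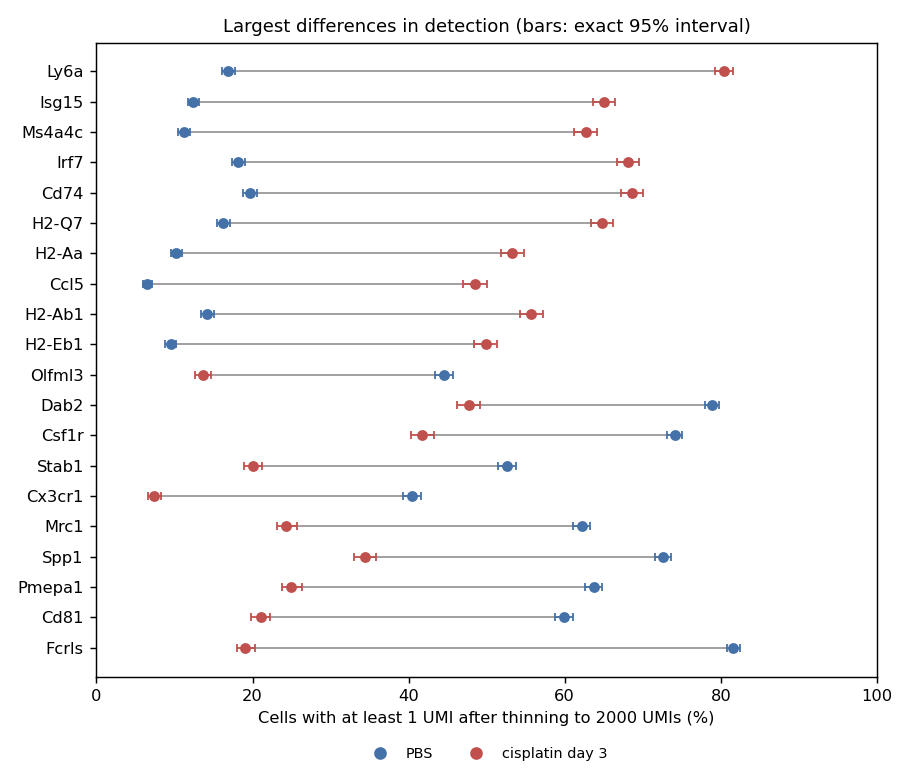
Share of cells with at least 1 UMI of a gene (horizontal, %) after thinning each cell to 2000 UMIs, for PBS (blue, 7570 cells) and day 3 (red, 4399 cells), with exact 95% intervals for counting error, for the 10 genes with the largest gain and the 10 with the largest loss. Ly6a was detected in 16.9% and 80.4% of cells and Fcrls in 81.6% and 19.1%.

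Ly6c2 divided the macrophage range. At least 1 Ly6c2 UMI was present in 94 of 7489 PBS cells (1.26%, 1.02 to 1.53%) and 1359 of 3442 day 3 cells (39.5%, 37.8 to 41.1%). Antiviral effectors gave a median of 2.17% of UMIs in day 3 cells with Ly6c2 and 1.26% in those without, against 0.922% and 0.493% in PBS cells with and without it. The class II genes gave 0.202% and 0.208% in day 3 cells with and without Ly6c2, and 0.0568% and 0.0114% in PBS cells. In day 3 cells without Ly6c2, Isg15 stood at 948 CPM against 90.2 CPM in such PBS cells, Cd74 at 4148 against 441 CPM and Cdkn1a at 1131 against 290.0 CPM. In the same cells Fcrls stood at 325 against 1491 CPM. The differences in these genes were thus also present among cells without a Ly6c2 UMI, though a cell can hold the RNA and show no UMI.

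Targets of p53 were higher in part. Of 34 genes compared, 13 were at least 2-fold higher and 1 lower, beside 10.7% and 7.51% of all genes, with a median of 0.62. Cdkn1a (chr17:29090976-29100727, mm10), which encodes the cell cycle inhibitor p21, had 290.1 CPM after PBS, 1074 CPM on day 3, 696 CPM on day 1 and 518 CPM on day 7. Mdm2, the ligase that degrades p53, went from 83.2 to 247 CPM. Phlda3, an inhibitor of AKT, and the pro-apoptotic gene Pmaip1 stood at 2.27 and 2.22, and Bax and Bbc3 at 0.70 and 0.88. Sesn1 and Sulf2 were on the other side, at -0.93 and -1.24. Trp53 itself was at 0.06. Per cell of the macrophage range, p53 targets gave a median of 0.152% of a cell's UMIs after PBS and 0.366% on day 3, and 93.5% of day 3 cells lay above the PBS median. That share weights abundant members such as Cdkn1a. By gene, 12 of 34 were at least 2-fold higher there and 1 lower, beside 8.82% and 8.81% of all genes, with a median of 0.49. Tnfrsf10b, a death receptor gene, changed side, with a log2 ratio of 1.23 over all cells and -0.18 in the macrophage range.

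Genes that repair crosslinks and adducts were not higher. Of 42 compared, 0 were at least 2-fold higher and 7 lower, beside 7.51% of all genes lower, with a median of -0.47. In the macrophage range 11 were lower, beside 8.81% of all genes there. Among the lower genes were Fancd2, Polh, Fanci, Brca2, H2afx and Chek1, most of which are expressed mainly in replicating cells. The nucleotide excision genes Ercc1, Xpa and Xpc stood at -0.06, 0.07 and -0.07. Of the genes for platinum transport and thiol defence, the copper and platinum importer Slc31a1 was at -0.19. The metallothioneins Mt1 and Mt2, which bind metals, were at -1.25 and -1.47, and Slc7a11, the cystine importer, was at 2.23.

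Regulators of cell death showed a few large values. Bik of the BCL2 family stood at -1.38, and at -0.98, under 2-fold, as a mean of per-cell CPM. Of the 16 genes of that family, 5 were at least 2-fold higher, beside 10.7% of all genes. Among these 5 were the anti-apoptotic genes Bcl2a1d, Bcl2a1a and Bcl2a1b at 2.63, 2.55 and 2.08 and the pro-apoptotic gene Bcl2l11 at 1.32. Reads of the near-identical copies Bcl2a1a, Bcl2a1b and Bcl2a1d may be split between them, so they may not count as separate results. Mcl1 went from 929 to 1432 CPM. Of 19 genes in a list of cell death executioners and their sensors, 5 were at least 2-fold higher and 0 lower, with a median of 0.49. Among the higher ones, Mlkl of necroptosis, the inflammasome sensor Nlrp3 and Casp4 of pyroptosis stood at 1.32, 1.41 and 1.11.

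Cell cycle genes were lower. Of 44 G2M genes, 40 were at least 2-fold lower and 0 higher, with a median of -2.04. Cenpf (chr1:189640606-189688086, mm10), a kinetochore protein, went from 71.8 to 8.69 CPM, Ccnb1, a mitotic cyclin, from 49.9 to 7.65 CPM and Mki67, the Ki-67 antigen, from 121 to 26.9 CPM. For the S phase list 19 of 38 were at least 2-fold lower, with a median of -0.98. Mcm5, part of the replication helicase, stood at -1.19 and Tk1, thymidine kinase, at -1.88, while Pcna was at 0.08.

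The 2 ranges differed in the size of these ratios, and this difference was not tested. The G2M median was -2.47 in the macrophage range and -1.15 in the lymphoid range, and the S phase median was -1.25 and -0.14. In the macrophage range, the 90th percentile of PBS cells for G2M genes was 0.886% of UMIs, which 10.0% of PBS cells exceed by definition. Of day 3 cells in this range, 0.755% exceeded it. The median cell differed less, from 0.0920% to 0.0588%. Mki67 was found in 12.5% and 2.12% of thinned cells of the macrophage range, or 25.5% and 6.10% unthinned, and in 9.64% and 4.12% of the lymphoid range, or 14.5% and 8.75% unthinned.

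**Figure D5:**
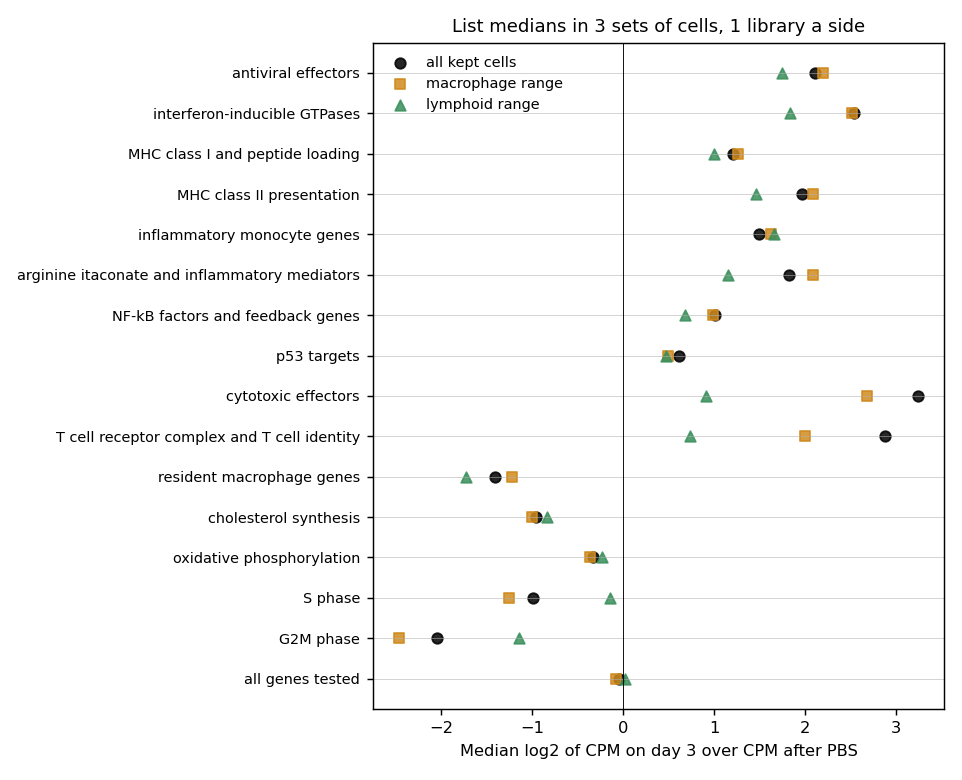
Median log2 of CPM on day 3 over CPM after PBS (horizontal) for 15 gene lists and for all genes (rows), over all kept cells (black circles), in the macrophage range (orange squares) and in the lymphoid range (green triangles). The medians of T cell genes and cytotoxic effectors are 2.88 and 3.25 over all cells and 0.73 and 0.92 in the lymphoid range, while those of antiviral effectors are 2.11 and 1.74. The lymphoid range is cut on T and NK cell genes, which constrains the ratios of those genes there.

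Metabolic gene lists were not alike in the size of their differences. Cholesterol synthesis had a median of -0.95, with 7 of 20 genes at least 2-fold lower, beside 7.51% of all genes. Among the 7 were Sqle and Fdps at -1.65 and -1.49. The count of lower genes was 12 with mitochondrial and ribosomal genes left out of the total and 11 as a mean of per-cell CPM. Oxidative phosphorylation had 0 of 35 nuclear genes past 2-fold in either direction, and 34 of 35 were below 0, with a median of -0.33. Of all 12325 genes, 5786 were above 0, and their median was -0.05. Per cell, the median share of that list was 1.54% after PBS and 1.13% on day 3 in the macrophage range. Glycolysis and hypoxia had a median of 0.10, and only Vegfa, an angiogenic factor, was at least 2-fold higher, at 1.39. Of 17 chaperones, Hspb1, Hspa1b and Hspa1a were at least 2-fold lower, at -2.07, -1.14 and -1.05. These are genes that tissue handling also raises, and they cannot be told apart from such effects of the sort.

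Lymphocyte genes were higher over all cells and in the macrophage range, with smaller medians in the lymphoid range. All 26 T cell genes compared were at least 2-fold higher, with a median of 2.88. In the lymphoid range 4 of 26 were, with a median of 0.73, beside 6.27% of all genes there. Cd3e and other T cell genes also define both ranges, which constrains their ratios within them. In the macrophage range, whose cells hold at most 1 UMI of the lymphoid genes, 20 of 21 were at least 2-fold higher, with a median of 2.00. The part of free lymphocyte RNA in that range was not tested. Cd3e, part of the T cell receptor complex, went from 4.31 to 38.9 CPM. Cd8a, of cytotoxic T cells, had 50 and 682 UMIs, and its log2 ratio in the lymphoid range was 2.34. Foxp3, the factor of regulatory T cells, stood at 2.37 over all cells and at 0.05 in the lymphoid range. Ctla4, an inhibitory receptor of such cells, stood at 2.09 and -0.25.

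Of 28 cytotoxic genes, 25 were at least 2-fold higher over all cells, and 12 of 28 in the lymphoid range, with medians of 3.25 and 0.92. The shares of all genes at least 2-fold higher were 10.7% and 6.27%. The macrophage range had 12 of 15 at least 2-fold higher, with a median of 2.68. Gzmb, the main granzyme of killer cells, went from 8.32 to 232 CPM, with ratios of 4.80 over all cells and 2.49 in the lymphoid range. It was found in 15.4% and 41.3% of thinned cells of the lymphoid range (25.5% and 56.0% unthinned) and in 0.0981% and 2.45% of the macrophage range (0.401% and 7.12% unthinned). Gzmf was found in 2.65% of thinned day 3 cells of the lymphoid range (4.92% unthinned). In the macrophage range, which holds more cells, it was found in 0.979% (2.76% unthinned). Prf1, which encodes perforin, stood at 1.81 in the lymphoid range and Tbx21, the T-bet factor, at 1.22. Of the 9 markers of NK and group 1 innate lymphoid cells, 7 were above 0 in the lymphoid range, with a median of 0.59. Of these 9, 2 were at least 2-fold higher. The markers below 0 were Ncr1 and Klra8, at -0.49 and -0.54 there, against 1.94 and 1.81 over all cells. Ncr1 is also among the genes that define the range.

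Genes of the innate lymphoid subsets had a smaller median within the lymphoid range than over all cells. Over all cells 17 of 23 were at least 2-fold higher, with a median of 1.86. In the lymphoid range 3 of 22 were, beside 6.27% of all genes there. Their median there was 0.17, with members from -0.74 to 2.03. Gata3, needed by group 2 cells and by T cells, was at 2.11 and 0.01. Il17a, a type 3 cytokine, had 38 and 247 UMIs, with ratios of 3.42 and 1.06. Il7r stood at 2.50 over all cells, at 2.85 in the macrophage range and at 0.15 in the lymphoid range, and only 52.3% of its day 3 UMIs lay in the lymphoid range. In the macrophage range it was found in 2.80% and 14.9% of thinned cells, or 6.86% and 29.4% unthinned. Cd3e was found in 0.0560% and 0.522% of the same thinned cells, and in 0.320% and 1.69% unthinned. Cd3e is among the genes of the cut, which keeps it low in this range, while Il7r and Thy1 are not. Its values therefore cannot show whether Il7r RNA there came from T cells. Thy1, by contrast, had 88.1% of its day 3 UMIs in the lymphoid range.

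Chemokine receptors had 5 of 13 genes at least 2-fold higher and 1 lower, the lower one being Cx3cr1, and 8 higher of 17 at a minimum of 10 UMIs per gene. Checkpoint genes had 10 of 18 higher and 0 lower, and immediate-early genes 6 of 22 higher and 0 lower. Colony-stimulating factors and their receptors had 3 of 12 higher and 2 lower. Over all genes compared, 10.7% were at least 2-fold higher and 7.51% lower. The 6 plasmacytoid dendritic cell markers summed to 684 CPM after PBS and 1265 CPM on day 3, with at least 1 UMI in 72.1% and 85.2% of thinned cells. Most of that sum came from Bst2, at 399 and 895 CPM, Tcf4, at 179.8 and 149 CPM, and Irf8, at 104 and 220 CPM, which other cells express too. The defining marker Siglech had 6 UMIs after PBS and 0 on day 3. Endothelial markers summed to 11.0 and 51.2 CPM and fibroblast markers to 105 and 102 CPM. Markers of epithelial or TC-1 cells summed to 1.42 and 4.36 CPM, with Krt19, Cldn4, Sftpc and Nkx2-1 at 0 UMIs in both libraries. B cell markers summed to 27.4 and 57.7 CPM, with Pax5 at 0 UMIs in both.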

How the data were processed

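Single-cell 3' RNA libraries of the PBS and day 3 groups were used, 1 per group. The authors deposited whole-number UMI counts per gene (31053 features) and barcode, and the files were used as deposited. Per the submitters' processing notes, Cell Ranger 3.1.0, Seurat 3.1.2 and build mm10 were used, and the annotation version is not given in the sources used here. Gene coordinates come from a GENCODE annotation of mm10 and promoters from RefSeq.

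Cells needed at least 500 genes and at most 10% mitochondrial UMIs, and doublets were kept, since Scrublet's automatic threshold marked 4 and 0 cells and so did not work. Counts were summed per library and scaled to CPM. Genes with at least 50 UMIs over both libraries were compared, with exact conditional binomial intervals at 95%, and at least 2-fold was called higher or lower. No p-value was computed. Lists were read by counts and medians. For detection, cells were thinned to 2000 UMIs (seed 1), which left out 505 PBS and 565 day 3 cells that were shallower. Shares have exact Clopper-Pearson intervals. UMIs are independent molecules only in part, so floors and the intervals of ratios and shares cover counting error alone.

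The 15 highest and 15 lowest genes by nearer interval bound, with unnamed gene models, mitochondrial, ribosomal and receptor segment genes left out, were named, with up to 6 members of each of 35 lists, all members of lists of at most 25 genes and the 10 largest detection differences each way. The cells, lists and genes were chosen with earlier results of these data known. Of the listed symbols, Cgas, Mnda, Mx2, Slfn10-ps, H2-T10, Ifi30, Cxcl11, Sepp1, Trgc1 and Trgc2 did not match a feature name. Methods were tested on simulated data. Alternatives varied the cell limits, doublets, scaling (edgeR 4.0.16 TMM and median-of-ratios factors), minimum count, thinning and ranges. Python 3.11.15, numpy 2.4.6, scipy 1.17.1, pandas 2.3.3, scanpy 1.11.5 and matplotlib 3.10.9 were used.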

Additional observations from a re-analysis of the deposited data

How the results depend on the processing

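With 1 library per group no replicate could be left out. No paired analysis was possible because each group is 1 library and the labels give no replicate numbers. At a minimum of 200 UMIs per gene, 616 genes were at least 2-fold lower in place of 926, with fewer genes tested. The median log2 ratio of cytotoxic effectors was 3.25, 2.50 as a mean of per-cell CPM and 2.58 without the cells of the lymphoid range, an alternative chosen after seeing the data. The G2M median of -2.04 was -2.27 at a mitochondrial limit of 5% and -2.47 in the macrophage range alone, where it was -2.66 in cells with no lymphoid UMI. Tnfrsf10b went from 1.23 to -0.18 in the macrophage range. The causes were not tested. Leaving mitochondrial and ribosomal genes out of the total shifted the median of all genes by -0.10. Of 455 list medians under alternatives, 435 lay within the main interval, 20 moved and 0 reversed. Of 9881 values of single genes, 1509 moved and 1 reversed. Of 42 detection differences, 36 moved and 0 reversed. Depth limits genes with few UMIs, such as Ciita and the interferons.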
